A study of Mus musculus with 8 samples.

Results

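The 8 genes described here encode the collagens of basement membranes that could be picked out by symbol in the deposited table: the collagen IV chains *Col4a1*, *Col4a2*, *Col4a3*, *Col4a4*, *Col4a5* and *Col4a6*, and the multiplexin collagens *Col15a1* and *Col18a1*. They are 8 of the 16686 genes with a gene ID and counts. The study asked which transcripts differ in aged fast-twitch muscle without fast myosin binding protein-C, a sarcomere protein that binds myosin and actin. Whole tibialis anterior (TA) muscle, a fast-twitch muscle of the lower leg, was sequenced from 4 wild-type mice (WT Old) and 4 *Mybpc2* knockout mice (C2-/- Old), with 1 library per mouse. All were males aged 22 months by their age labels, although a growth entry in the same labels gives a far younger age. In the knockout, a Neo cassette between LoxP sites stands in place of exons 2 to 22 of *Mybpc2*, and no tissue-specific Cre is named. The study gives FVBN as the background of both genotypes. Within a library, transcripts of fibres, vessels, connective tissue and nerve are mixed, so fewer cells of a type and less RNA per cell cannot be told apart in any value below.

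Basement membranes are thin sheets of extracellular matrix that surround every muscle fibre, capillary and Schwann cell. Collagen IV chains join in sets of 3 and then link into a network, to which laminin is tied by nidogens and perlecan. The α1 and α2 chains are found in nearly all basement membranes, whereas the α3, α4, α5 and α6 chains are best known from kidney, lung, eye and smooth muscle. Collagens XV and XVIII carry glycosaminoglycan chains, lie on the side of the membrane that faces the connective tissue, and release the fragments restin and endostatin when cut. Loss of collagen XV is known to cause a mild myopathy in mice, and variants of collagen IV α1 and α2 damage small vessels and muscle.

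The 6 collagen IV genes lie in 3 head-to-head pairs, which are transcribed away from each other. In GRCm38.p6 (RefSeq), *Col4a1* runs from 11198423 to 11312889 on the minus strand of chromosome 8 and *Col4a2* from 11312805 to 11449287 on the plus strand. *Col4a4* (82448419 to 82587034, minus strand) and *Col4a3* (82586921 to 82722059, plus strand) lie on chromosome 1. *Col4a6* (141165403 to 141474095, minus strand) and *Col4a5* (141475370 to 141689236, plus strand) lie on chromosome X. The gene spans of the first pair share 85 bases, those of the second share 114, and those of the third are 1274 bases apart. *Col15a1* (chromosome 4, 47207655 to 47313167, plus strand) and *Col18a1* (chromosome 10, 77052178 to 77166530, minus strand) stand alone, apart from an overlap of *Col18a1* with *Slc19a1* in the intervals of the deposited table. Intervals over 2 Mb in that table, left out of this statement, overlap *Col15a1* (6 of them) and *Col4a1*, *Col4a2*, *Col4a3* and *Col4a4* (1 each). Strand-specific counting is not stated, so reads that fell on shared bases cannot be assigned to one gene with certainty.

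The stretch where the first exons of *Col4a1* and *Col4a2* overlap is shown because these genes had the highest Pearson correlation of the pairs compared below. It covers chr8:11312801-11312830 on the plus strand of GRCm38.p6, and the capitals mark the 22 bases that both RefSeq first exons share, which belong to the 5′ end of each transcript. The single GC box of the *Col4a1* promoter entry lies within these shared bases.
Col4a1 and Col4a2, shared start: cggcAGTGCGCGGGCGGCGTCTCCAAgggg
*Col18a1* had the smallest p of the 8 genes, and 232 bases upstream of its distal start are shown for that reason. They cover chr10:77166549-77166780 on the minus strand, begin beyond the GENCODE first exon, which reaches past the RefSeq start, hold no annotated GENCODE exon, and carry 3 GC boxes in capitals, all in the orientation CCGCCC.
Col18a1, upstream of the distal start: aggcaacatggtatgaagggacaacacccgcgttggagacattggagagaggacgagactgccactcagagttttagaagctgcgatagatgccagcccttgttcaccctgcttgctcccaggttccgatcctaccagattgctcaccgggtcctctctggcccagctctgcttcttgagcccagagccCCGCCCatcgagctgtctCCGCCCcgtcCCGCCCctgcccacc

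RefSeq gave 8 promoter entries for 7 of the 8 genes, each reaching from 250 bases before a start to 50 bases after it, with 2 entries for *Col18a1* whose starts are 52825 bases apart and none for *Col4a3*. A GC box (GGGCGG, either strand) was found in 5 of the 8 entries, against 35.7% of all 32851 promoters in the table. A CCAAT box (CCAAT, either strand) was found in 4 of 8, against 37.4% of all promoters, and a TATA box (TATAAA, either strand) in 0 of 8, against 13.6%. Both boxes other than TATA were present at *Col4a1*, *Col4a2*, *Col4a5* and the distal start of *Col18a1*. The entries of *Col4a1* and *Col4a2* overlap and therefore share part of their matches. Letters alone do not show that a factor binds, and the gene counts do not separate the *Col18a1* starts.

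Per length of transcript, *Col4a1* and *Col4a2* were by far the most abundant of the 8 genes. In TPM, the deposited value per length, *Col4a1* averaged 25.8 ± 4.79 in WT Old and 31.6 ± 4.50 in C2-/- Old (SD, n = 4). *Col4a2* averaged 21.6 ± 3.52 and 27.2 ± 3.50 TPM, *Col15a1* 6.66 ± 2.32 and 10.6 ± 2.84 TPM, and *Col18a1* 2.12 ± 0.677 and 3.36 ± 0.474 TPM. The order *Col4a1*, *Col4a2*, *Col15a1*, *Col18a1* held in 8 of 8 mice. Below them, *Col4a4*, *Col4a5*, *Col4a3* and *Col4a6* lay between 0.02 and 0.32 TPM in every mouse. *Col4a4* exceeded *Col4a5* in 5 of 8 mice and *Col4a5* exceeded *Col4a3* in 3 of 8, so these neighbours could not be ordered beyond their spread. *Col4a4* and *Col4a5* were equal at 2 decimals in WT Old replicate 4 (0.21 TPM) and C2-/- Old replicate 3 (0.25 TPM). *Col4a4* was above *Col4a3* in every mouse, and *Col4a6* was below *Col4a3* in 8 of 8. *Col4a1* and *Col4a2* together made up 98.6% ± 0.405 of the collagen IV TPM in WT Old and 98.9% ± 0.15 in C2-/- Old.

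Depth was similar in all libraries: totals lay between 25425993 and 29747692 expected counts, and 3 counts, taken as the smallest level that can be shown, corresponded to 0.104 to 0.116 CPM, where CPM is the count divided by the scaled library total. This floor takes in counting error and nothing else. *Mybpc2* itself ranged from 4964 to 7392 CPM in WT Old and from 3.85 to 38.3 CPM in C2-/- Old, so the knocked-out gene matched the label of every library. The highest knockout value was that of C2-/- Old replicate 3, and the other knockout mice had 3.85 to 4.35 CPM. The 9 fibre markers, such as *Acta1*, *Ckm* and *Myh4*, summed to between 195293 and 258865 CPM across the 8 mice. All CPM values are scaled by edgeR's TMM factors, and every fold change is C2-/- Old over WT Old.

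*Col4a1* encodes the α1 chain, which joins α2 in the common collagen IV molecule. Its level was 95.2, 98.8, 108.9 and 78.2 CPM in WT Old replicates 1 to 4 and 123.0, 84.7, 124.7 and 114.9 CPM in C2-/- Old replicates 1 to 4. All knockout mice but one exceeded every wild-type mouse: C2-/- Old replicate 2 lay among them. The log2 fold change was 0.23 ± 0.15 (SE), with a 95% interval from −0.11 to 0.57, and edgeR's quasi-likelihood test gave an adjusted p = 0.968 (0.158 unadjusted).

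*Col4a2* encodes the partner chain. It was counted at 81.4, 74.0, 86.6 and 69.7 CPM in WT Old and at 110.6, 74.1, 94.0 and 95.8 CPM in C2-/- Old. The pattern over mice was that of *Col4a1*, with C2-/- Old replicate 2 again the only knockout below the highest wild type. The log2 fold change was 0.26 ± 0.14 (SE; 95% interval −0.04 to 0.57), at an adjusted p = 0.968 by edgeR (0.0821 unadjusted). Without C2-/- Old replicate 2, the log2 fold change was 0.35 for *Col4a1* (0.0307 unadjusted) and 0.37 for *Col4a2* (0.0196 unadjusted). The lowest values were 0.16 for *Col4a1* without WT Old replicate 4 (0.328 unadjusted) and 0.18 for *Col4a2* without C2-/- Old replicate 1 (0.228 unadjusted), and for both genes only 1 of the 8 omissions gave an unadjusted value under 0.05. Over all alternatives, the adjusted p lay between 0.682 and 0.9999 for *Col4a1* and between 0.652 and 0.9996 for *Col4a2*.

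*Col15a1*, which encodes collagen XV, had the largest fitted fold change of the 8 genes. WT Old replicates 1 to 4 had 23.6, 11.0, 23.1 and 17.8 CPM, and C2-/- Old replicates 1 to 4 had 38.9, 19.4, 24.7 and 33.7 CPM. WT Old replicate 2 was the lowest and C2-/- Old replicates 1 and 4 the highest, and the groups overlapped through C2-/- Old replicate 2. The log2 fold change was 0.63 ± 0.27 (SE; 95% interval 0.03 to 1.23), or 1.55-fold, at an adjusted p = 0.919 by edgeR (0.0414 unadjusted). The unadjusted value rose to 0.0747 without WT Old replicate 2 and to 0.0771 without WT Old replicate 4. It rose to 0.128 without C2-/- Old replicate 1 and to 0.0997 without C2-/- Old replicate 4. The other omissions gave unadjusted values from 0.0160 to 0.0438.

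*Col18a1* encodes collagen XVIII, the source of endostatin. Its level was 6.02, 4.05, 8.48 and 7.13 CPM in WT Old and 8.97, 8.44, 11.6 and 9.39 CPM in C2-/- Old. The groups met at WT Old replicate 3 and C2-/- Old replicate 2, each of which had 227 counts, and all other knockout mice were above all wild types. The log2 fold change was 0.58 ± 0.22 (SE; 95% interval 0.10 to 1.06), or 1.49-fold, at an adjusted p = 0.852 by edgeR (0.0224 unadjusted). The unadjusted value was 0.0514 without WT Old replicate 1 and 0.0696 without C2-/- Old replicate 3. It was 0.00647 to 0.0402 in the other omissions. In TPM, the values ran from 1.27 to 2.89 in WT Old and from 3.02 to 4.03 in C2-/- Old and did not overlap, which was also true, in that direction, of 2.38% of the tested genes.

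**Figure D1:**
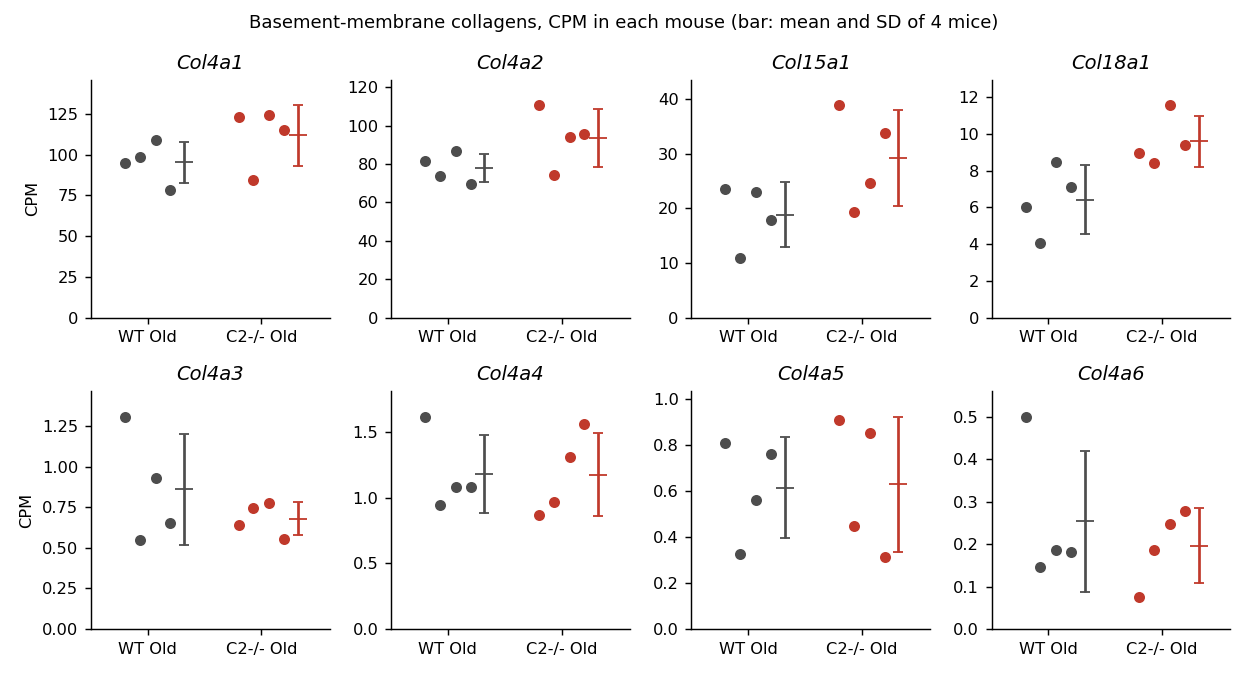
CPM of the 8 genes in each of the 4 WT Old (grey) and 4 C2-/- Old (red) mice, replicates 1 to 4 from left to right, each panel on its own linear axis from 0, with the mean and SD of 4 mice as a bar. *Col4a1* and *Col4a2* lie near 70 to 125 CPM and the 4 minor collagen IV chains below 1.7 CPM, with *Col15a1* and *Col18a1* between them.

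The α3, α4 and α5 chains, which form the collagen IV of the glomerular filter, were counted at low levels. *Col4a3* had 15 to 34 counts in a mouse, or 0.547 to 1.31 CPM in WT Old and 0.555 to 0.780 CPM in C2-/- Old, with the highest value in WT Old replicate 1. *Col4a4* ranged from 0.948 to 1.62 CPM in WT Old and from 0.871 to 1.56 CPM in C2-/- Old, and *Col4a5* from 0.328 to 0.810 CPM and from 0.312 to 0.908 CPM. The groups overlapped widely for all 3 chains. Their log2 fold changes were −0.33 ± 0.35, −0.0044 ± 0.30 and 0.03 ± 0.44 (SE), and the 95% intervals, the narrowest of which ran from −0.67 to 0.66, leave room for changes in either direction. *Col4a6*, the partner of *Col4a5* in smooth muscle, had 13, 4, 5 and 5 counts in WT Old and 2, 5, 7 and 8 in C2-/- Old and did not pass the filter on low counts.

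Across the genotypes, 7 of the 8 genes passed that filter. Of these, 5 had a positive and 2 a negative log2 fold change, with a median of 0.23, against −0.02 for all 12542 tested genes. None passed an adjusted p of 0.05, as only 4 genes of the whole table did (0.0319%). At an unadjusted p under 0.05, 2 of the 7 were higher in C2-/- Old (*Col15a1* and *Col18a1*), against 3.38% of the tested genes, and 0 were lower, against 1.91%. None of the 8 had CPM values above those of every wild-type mouse in all 4 knockout mice, against 2.03% of the tested genes.

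**Figure D2:**
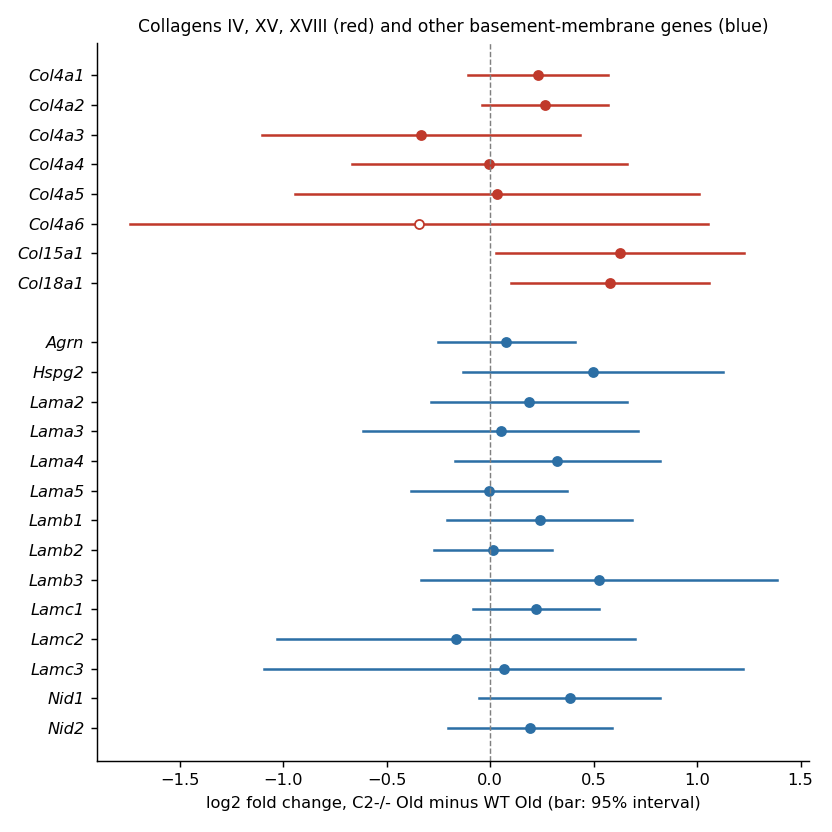
Log2 fold change (C2-/- Old minus WT Old) with its 95% interval from edgeR for the 8 collagen genes (red; *Col4a6*, open, from the fit without a filter) and for 14 tested laminin, nidogen, perlecan and agrin genes (blue). The intervals of *Col15a1* and *Col18a1* are the only ones here that do not reach 0.

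The balance of the chains within a library does not depend on scaling between libraries. The ratio of *Col4a2* to *Col4a1* counts was 0.855, 0.749, 0.795 and 0.892 in WT Old and 0.899, 0.875, 0.754 and 0.833 in C2-/- Old. The groups covered nearly the same range, with means of 0.823 ± 0.0635 and 0.840 ± 0.0639 (SD), and the two-sided exact permutation test gave p = 0.743 (adjusted over 4 ratios, 0.971). For *Col15a1* to *Col18a1* the means were 2.97 ± 0.651 and 3.09 ± 1.06, with an exact permutation p = 0.971, and single mice ranged from 2.14 to 4.34. For *Col4a4* to *Col4a3* they were 1.45 ± 0.293 and 1.79 ± 0.704, with an exact permutation p = 0.429 from counts of at most 45. The mean log2 ratio of *Col4a4* to *Col4a3* differed by 0.25, and by 0.0092 without C2-/- Old replicate 4, whose ratio was 2.81. No ratio of *Col4a6* to *Col4a5* was tested, since counts below 10 occurred in both genes.

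The network-forming chains were also set against *Col1a1* and *Col1a2*, which encode the fibrillar collagen I of connective tissue and tendon. The sum of *Col4a1* and *Col4a2* counts was 2.20, 4.31, 1.35 and 1.14 times that of *Col1a1* and *Col1a2* in WT Old, and 1.32, 0.891, 0.760 and 0.773 times in C2-/- Old. The ratio exceeded 1 in 4 of 4 wild-type mice and in 1 of 4 knockout mice, and the groups overlapped. The mean log2 ratio differed by −1.10, with an exact permutation p = 0.0571 (adjusted over 4 ratios, 0.229), where 4 mice against 4 allow no p under 0.0286. Leaving out each mouse in turn gave differences from −1.36 (without WT Old replicate 4) to −0.72 (without WT Old replicate 2), with exact permutation p between 0.0286 and 0.143, under 0.05 only without WT Old replicate 4. *Col1a1* itself had 50.7 ± 23.0 CPM in WT Old and 124.6 ± 38.3 CPM in C2-/- Old, and its log2 fold change was 1.30 at an adjusted p = 0.608 by edgeR.

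**Figure D3:**
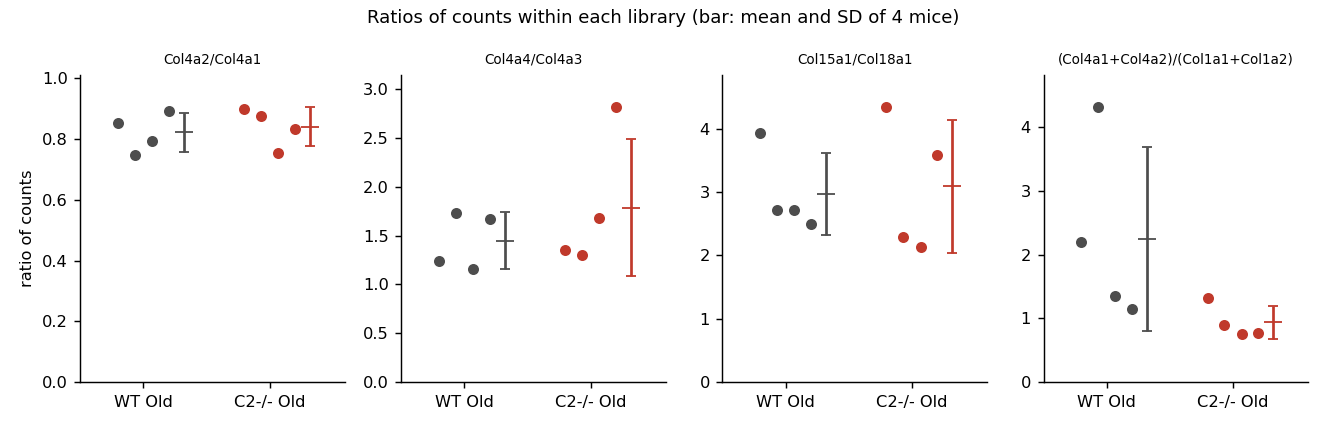
Ratios of counts within each library for 4 WT Old (grey) and 4 C2-/- Old (red) mice, with the mean and SD of 4 mice as a bar and every axis starting at 0. *Col4a2* to *Col4a1* stays between 0.749 and 0.899, while the ratio of both to collagen I spans 0.760 to 4.31.

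Levels of the 6 genes with at least 10 counts in every mouse were compared in pairs over the 8 mice, on a scale of log2 CPM with a prior count of 2, giving 15 pairs. The points of a pair come from the same library and share its scaling. *Col4a1* and *Col4a2* rose and fell together, with Pearson's r = 0.905 (exact permutation p = 0.00243, adjusted 0.0365) and Spearman's rho = 0.857 (exact permutation p = 0.0107, adjusted 0.0804). Without the 2 mice farthest from the median of *Col4a1*, r was 0.858, and with each genotype centred on its own mean it was 0.878. *Col4a2* and *Col15a1* gave r = 0.853 (exact permutation p = 0.00642, adjusted 0.0482) and rho = 0.952 (exact permutation p = 0.00114, adjusted 0.0171). For that pair, r was 0.817 without the 2 farthest mice and 0.769 with the genotypes centred.

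The multiplexins followed each other less closely. *Col15a1* and *Col18a1* gave r = 0.747 (exact permutation p = 0.0377, adjusted 0.189) and rho = 0.762 (exact permutation p = 0.0368, adjusted 0.110), and r fell to 0.394 without the 2 mice farthest from the median of *Col15a1*, WT Old replicate 2 and C2-/- Old replicate 1. Leaving out WT Old replicate 2 alone gave r = 0.375 (exact permutation p = 0.414). Leaving out C2-/- Old replicate 1 alone gave r = 0.787 (exact permutation p = 0.0444). Without any other single mouse, r stayed between 0.729 and 0.818, so the relation depends strongly on WT Old replicate 2. With the genotypes centred, r was 0.563, so the r over all mice also takes in the difference between genotypes. Within WT Old r was 0.824, and within C2-/- Old it was −0.0164. These values within a genotype come from few mice and were not tested. *Col4a3* and *Col4a4*, the pair on chromosome 1, gave r = 0.436 (exact permutation p = 0.282, adjusted 0.603), and r was −0.08 without WT Old replicates 1 and 3. Of the 15 pairs, 2 passed an adjusted p of 0.05 for r, those named first.

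**Figure D4:**
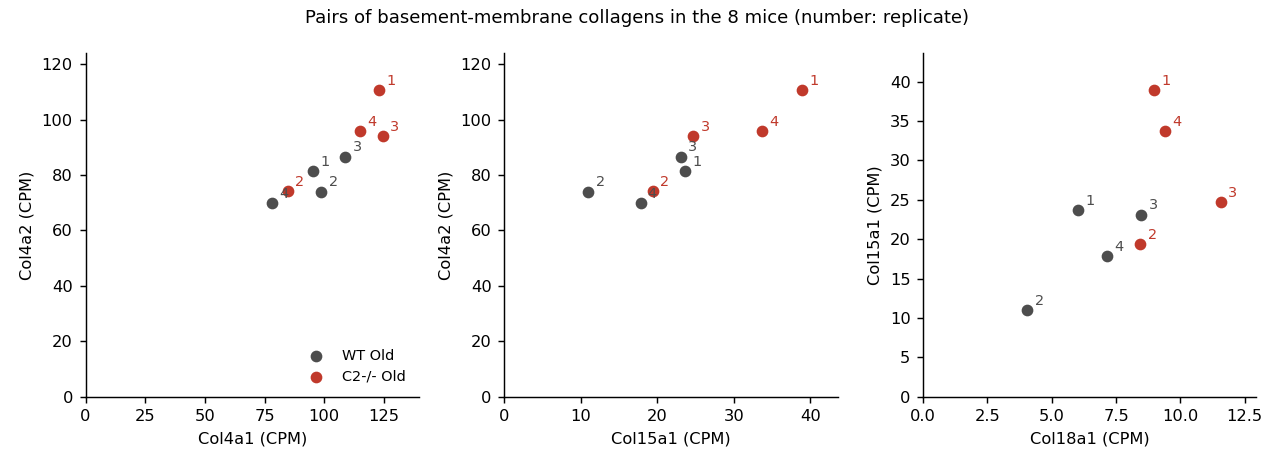
CPM of *Col4a2* against *Col4a1*, of *Col4a2* against *Col15a1* and of *Col15a1* against *Col18a1* in 4 WT Old (grey) and 4 C2-/- Old (red) mice, each labelled with its replicate number, on linear axes from 0. The first 2 pairs follow a line (r = 0.905 and 0.853 on the log2 scale), and the third is spread more widely (r = 0.747).

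Among 11395 other genes with a mean of at least 1 CPM, those whose pattern over the 8 mice was most like that of the genes here were found with each genotype centred on its mean, as a description from 8 points. *Ccdc141*, *Amhr2*, *Ten1*, *Phb* and *St3gal3* were nearest to the mean of *Col4a1* and *Col4a2*, with r between 0.922 and 0.957. *Bag2*, *Dcakd*, *Frzb*, *Fdps* and *Zfp750* were nearest to *Col15a1*, with r between 0.965 and 0.978. *Plcl1*, *Map2k6*, *Col3a1*, *Pomk* and *Atp2b3* were nearest to *Col18a1*, with r between 0.979 and 0.994, and *Col3a1*, a fibrillar collagen of connective tissue, was the only collagen among the 15.

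The other components of the basement membrane were laminin chains, nidogens, perlecan and agrin. Of 15 listed genes, 14 were tested, since *Lama1* had at most 2 counts in a mouse. Of the 14, 12 had a positive and 2 a negative log2 fold change, with a median of 0.19. Over all tested genes, 45.75% were positive. At an unadjusted p under 0.05, 0 of the 14 were higher and 0 lower, against 3.38% and 1.91% of all tested genes. The smallest p were those of *Nid1*, which encodes nidogen-1 and links laminin to collagen IV (36.2 ± 10.7 against 47.2 ± 7.28 CPM, log2 fold change 0.38, adjusted p = 0.968 by edgeR), and *Hspg2*, which encodes perlecan (102 ± 44.6 against 144 ± 24.8 CPM, log2 fold change 0.50, adjusted p = 0.968 by edgeR). *Lamb2*, a laminin chain of the neuromuscular junction that is named after its values were seen, had 202 ± 24.7 and 204 ± 23.4 CPM, a log2 fold change of 0.01.

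Genes that fold, modify and export collagen chains were a second list, of which 19 of 21 were tested. Of these, 14 had a positive and 5 a negative log2 fold change (median 0.09). At an unadjusted p under 0.05, 4 passed, all higher in C2-/- Old, against 3.38% of all tested genes. *Fkbp10*, a prolyl isomerase of the endoplasmic reticulum, had 2.77 ± 1.01 and 5.65 ± 0.831 CPM (log2 fold change 1.03 ± 0.26 SE, adjusted p = 0.571 by edgeR). *Serpinh1*, the collagen chaperone Hsp47, had 18.0 ± 2.73 and 26.4 ± 2.65 CPM (log2 fold change 0.55 ± 0.14 SE, adjusted p = 0.571 by edgeR). The other two were *P3h3* and *Crtap*, which belong to the prolyl 3-hydroxylase family or act with it and are named after their values were seen, with log2 fold changes of 0.49 and 0.37. *Pxdn*, the peroxidasin that crosslinks collagen IV, had 13.1 ± 5.76 and 13.9 ± 3.93 CPM, and *Col4a3bp*, the kinase and lipid transfer protein that was named for binding collagen IV α3, had 41.6 ± 3.81 and 40.3 ± 2.27 CPM; both are also named after their values were seen.

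Of 15 cell-surface receptors of the basement membrane, 14 were tested, and 7 had a positive and 7 a negative log2 fold change (median 0.01). At an unadjusted p under 0.05, 0 were higher and 0 lower, against 3.38% and 1.91% of all tested genes. The smallest p were those of *Itgb1*, the β1 integrin subunit (log2 fold change 0.19, adjusted p = 0.968 by edgeR), and *Ddr2*, a collagen receptor kinase (0.35, adjusted p = 0.968 by edgeR). Of 10 tested genes of matrix turnover, 3 passed an unadjusted p of 0.05 upward and 1 downward, against 3.38% and 1.91% of all tested genes. Their median log2 fold change was −0.11. *Mmp2*, the gelatinase that cuts collagen IV, had 26.1 ± 4.63 and 44.4 ± 6.23 CPM (log2 fold change 0.77 ± 0.15 SE, adjusted p = 0.391 by edgeR). Its inhibitor and partner in activation *Timp2* had 98.4 ± 23.2 and 151 ± 16.8 CPM (log2 fold change 0.62, adjusted p = 0.647 by edgeR). The remaining calls, named after their values were seen, were *Mmp14* (0.43) and *Timp4*, the lower gene (−0.88).

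All other collagen genes, 35 in number with 26 tested, had a median log2 fold change of 0.67. Of these, 20 were positive and 6 negative. At an unadjusted p under 0.05, 11 were higher and 1 lower (*Col9a1*), against 3.38% and 1.91% of all tested genes, and 0 passed at an adjusted p. *Col5a2*, a collagen that joins collagen I fibrils, had 6.20 ± 2.02 and 11.9 ± 2.09 CPM (log2 fold change 0.93, adjusted p = 0.571 by edgeR), and *Col6a1*, of the microfibrils next to the basement membrane, had 26.9 ± 7.93 and 47.8 ± 7.37 CPM (0.83, adjusted p = 0.598 by edgeR). Whether the basement-membrane collagens and the other collagens differ in their change was tested only through the ratio to collagen I above.

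**Figure D5:**
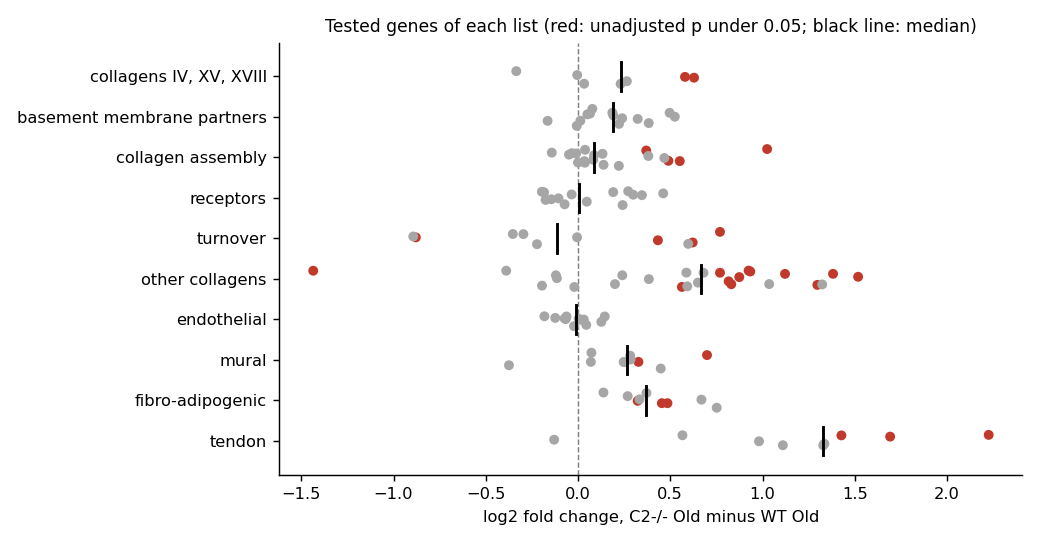
Log2 fold change (C2-/- Old minus WT Old) of every tested gene in 10 lists, with genes at an unadjusted p under 0.05 in red and the median of each list as a black line. The medians run from −0.11 for matrix turnover through 0.23 for collagens IV, XV and XVIII to 0.67 for the other collagens and 1.33 for tendon markers.

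Markers of cells of vessels and connective tissue were counted in the same libraries. Of 12 endothelial markers, all tested, 6 had a positive and 6 a negative log2 fold change (median −0.0088) and 0 passed an unadjusted p of 0.05, and their summed level was 385 to 504 CPM in WT Old and 380 to 474 CPM in C2-/- Old. Of 10 mural markers (pericytes and smooth muscle), 9 were positive (median 0.27) and 2 passed, both higher, with sums of 502 to 715 and 677 to 755 CPM. Of 9 fibro-adipogenic markers, 9 were positive (median 0.37) and 3 passed, all higher. Over all tested genes, 3.38% were higher at that threshold. The fibro-adipogenic sums did not overlap, with 688 to 830 CPM in WT Old and 865 to 1048 CPM in C2-/- Old. Their means of 748 and 991 CPM came largely from *Gsn* (405 and 555 CPM) and *Dcn* (235 and 294 CPM), named after their values were seen. Of the 9 genes, 4 singly had CPM above every wild-type mouse in all knockout mice, against 2.03% of tested genes. Of 10 tendon markers, 9 were tested, 8 were positive (median 1.33) and 3 passed, all higher, with sums of 69.4 to 226 and 113 to 328 CPM. WT Old replicate 2, lowest for *Col15a1* and *Col18a1*, was also lowest in the tendon and mural sums. It was not lowest in the endothelial sum (401 CPM, against 380 CPM in C2-/- Old replicate 3). Nor was it lowest in the fibro-adipogenic sum (753 CPM, against 688 CPM in WT Old replicate 4), most of which is *Gsn* and *Dcn*. By the mean log2 CPM of the 9 fibro-adipogenic genes, which weighs them equally, WT Old replicate 2 was the lowest mouse. Relative to the mean of all mice it was at −0.497, against −0.402 in WT Old replicate 4. The part of these cells in the levels of *Col15a1* and *Col18a1* was not tested.

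Among the remaining cell types, 0 markers passed an unadjusted p of 0.05, against 3.38% of all tested genes higher and 1.91% lower. Schwann cell markers had 2 positive and 8 negative log2 fold changes (median −0.36), and macrophage markers 8 and 1 (median 0.24). Adipocyte markers had 5 and 2 (median 0.40), satellite cell markers 2 and 1 (median 0.02), blood markers 1 and 2 (median −0.27), and fibre markers 3 and 6 (median −0.06). *Calcr* of the satellite cell list and *Hbb-bs* and *Hbb-bt* of the blood list had at most 9 counts in any mouse and were not tested.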

How the data were processed

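The authors sequenced TA muscle RNA, with 1 library from each of 4 WT Old and 4 C2-/- Old mice, and genotypes were taken from the labels. The authors deposited expected counts per gene, not normalized, with TPM and FPKM values computed from the same reads. Their methods name HISAT, GRCm38 and featureCounts, and the labels also name Bowtie2 and DESeq2. The fold changes, p-values and q-values of the authors' own comparison in that table were not used. Between 5.50% and 6.53% of count values per mouse are not whole, and the counts were rounded. Of 16687 rows, 1 without a gene ID was left out, and the gene ID gave back 25 symbols that had become dates or occurred more than once. No value column of a mouse was left unmapped.

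edgeR's default filter on low counts kept 12542 genes, which were tested together with edgeR 4.0.16 (R 4.3.3, TMM, quasi-likelihood test, Benjamini-Hochberg adjustment). TMM factors lay between 0.929 and 1.03. The standard error was taken from the fold change and the root of F. Per-length levels used the deposited TPM, given to 2 decimals, and the deposited FPKM values were read only as a check. Ratios and correlations used two-sided exact permutation tests (Python 3.11.15, scipy 1.17.1), adjusted within each family. The edgeR test was tried on simulated counts first. The permutation test of the ratios was tried on fixed values with a known answer, and that of the correlations was not tried beforehand.

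Named genes are the 8 collagens, the 2 genes with the smallest p in each of 5 lists of basement membrane biology, and the 5 genes most like each of 3 profiles. The 10 lists of cell type markers are given by counts and sums. The collagens and the lists were chosen with earlier results of these data known. *Cert1* was matched to the table's older name *Col4a3bp* by gene ID, and *Mia2* and *Mmp7* were not matched. Alternatives were DESeq2 1.42.0, voom in limma 3.58.1 with equal or sample-specific weights, RLE scaling, other filters, the replicate number as a block, a pseudocount of 1 or no prior count, CPM per kb, and leaving out each mouse. Sequences and positions are RefSeq's for GRCm38.p6. The strand given for several genes in the deposited table differs from RefSeq and GENCODE, which were used here.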

Additional observations from a re-analysis of the deposited data

Results flagged for a closer look

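Among 24 groups of 4 mice examined, 8 genes and 4 ratios in each genotype, 2 held a mouse far from the rest of its group by Dixon's test. Chance alone flags about 1 in 20 groups. The ratios reuse the counts of the genes, so the groups are not independent. *Col4a6* was at 0.501 CPM (13 counts) in WT Old replicate 1, against 0.146 to 0.187 CPM in the other wild-type mice. The ratio of *Col15a1* to *Col18a1* was 3.93 in the same mouse, against 2.50 to 2.72 in the other wild types, while C2-/- Old ranged from 2.14 to 4.34.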

How the results depend on the processing

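In every setting tried, *Col4a1*, *Col4a2*, *Col15a1* and *Col18a1* kept a positive and *Col4a3* a negative log2 fold change, and no basement-membrane collagen passed an adjusted p of 0.05. The number of genes past it was 4, with 39 under DESeq2, 5 without a filter beyond 1 count in total and 4 to 7 when 1 mouse was left out. Counts at an unadjusted p under 0.05 became 326 to 580 higher and 170 to 403 lower without 1 mouse. The number of basement-membrane collagens among the higher genes was 1 with sample quality weights in limma-voom, where *Col15a1* gave 0.44 (0.0942 unadjusted by limma), and 1 to 4 without 1 mouse. The direction of *Col4a4* turned to 0.0083 with at least 10 counts required in every mouse and ranged from −0.17 to 0.18 without 1 mouse. *Col4a5* turned to −0.021 with limma-voom, to −0.29 with quality weights, and ranged from −0.19 to 0.26. Without 1 mouse, the difference in mean log2 ratio ranged from −0.013 to 0.082 for *Col4a2* to *Col4a1*, from −0.17 to 0.18 for *Col15a1* to *Col18a1*, from 0.0092 to 0.38 for *Col4a4* to *Col4a3* and from −1.36 to −0.72 for collagen IV to collagen I. Pearson's r then ranged from 0.877 to 0.940 for *Col4a1* and *Col4a2*, from 0.375 to 0.818 for *Col15a1* and *Col18a1* and from −0.077 to 0.826 for *Col4a3* and *Col4a4*. The causes were not tested. Same-numbered mice of the 2 genotypes are different animals, and their deviations correlated at 0.267, 0.0420, −0.0507 and 0.0212. Differently numbered mice gave −0.226 to 0.202. These values cannot decide whether same-numbered libraries were processed together, and the main fit did not pair them. With the replicate block, 408 genes were higher and 252 lower at an unadjusted p under 0.05, 2 of them basement-membrane collagens, and 4 passed the adjusted p. The 2 collagens were *Col15a1* (0.00442 unadjusted by edgeR, adjusted 0.609) and *Col18a1* (0.00639 unadjusted by edgeR, adjusted 0.649). *Col4a3*, *Col4a4*, *Col4a5* and *Col4a6* had between 2 and 45 counts in a mouse, and what limits their precision was not tested.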
